A study of Mus musculus with 6 samples.

Results

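The nuclear genes that make and destroy mitochondrial RNA were followed in 6 libraries of E0771, a breast carcinoma line from C57BL/6 mice. The 9 genes were Pnpt1, Supv3l1, Lrpprc, Slirp, Polrmt, Tfam, Tfb1m, Tfb2m and Fastkd2. They were chosen by their function and on this same comparison, with the values of Pnpt1 already known, and all 9 were found by exact symbol among the 10520 genes of the count table. Because the choice used this contrast, their values are given as a description without p-values. All 9 passed the filter on low counts and are among the 8969 genes tested.

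Both groups were transduced with a lentiviral vector that carries puromycin resistance and were grown out under puromycin. The shControl group (3 libraries) received the empty vector, and the shLmna group (3 libraries) received a short hairpin RNA against the transcript of Lmna, which codes for lamins A and C of the nuclear lamina. Each group is a transduced and selected pool of cells, and nothing in the sources used here says whether its libraries came from separate cultures. The spread between libraries may therefore be technical. RNA was read by MARS-seq, which sequences the 3′ ends of polyadenylated RNA and gives every captured molecule a random tag, the unique molecular identifier (UMI). Copies made during amplification carry the same tag and are counted once. The UMIs of a gene were counted over the last 1000 bases of its transcript and 100 bases beyond. In bulk RNA, fewer cells with a transcript and less of it per cell cannot be told apart.

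The libraries held 1846208 to 3242051 UMIs. Lmna itself was lower in every shLmna library, with a log2 fold change of -1.20. Of the epithelial markers, Krt8 was read at 516 to 814 UMIs per library, Krt18 and Epcam were low, and Cdh1 was not among the genes of the table. Of the mesenchymal markers, Vim, an intermediate filament gene, was read at 10546 to 17461 UMIs. Fn1 was read at 0 to 8 UMIs, and Cdh2 was not among the genes of the table. One library of each group stood apart. Of 6 melanocyte markers, 5 were in the table (Pmel, Tyrp1, Dct, Mlana and Sox10), and their summed UMIs were 12, 7 and 1390 in shControl replicates 1, 2 and 3. They were 1, 1622 and 3 in shLmna replicates 1, 2 and 3. The labels of shControl replicate 3 and shLmna replicate 2, the libraries with these pigment cell transcripts, name no other cell than E0771. The study also read RNA of a melanoma line, B16F10, by RNA-seq. The source of the transcripts was not tested. Values that rest on those libraries are also given without both of them, a choice made after seeing the data. Lmna was at -1.13 without them. The titles of the control libraries carry consecutive numbers after the plate name, and so do those of the shLmna libraries. Whether these numbers are plate positions is not given. Their order and the group cannot be told apart.

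**Figure D1:**
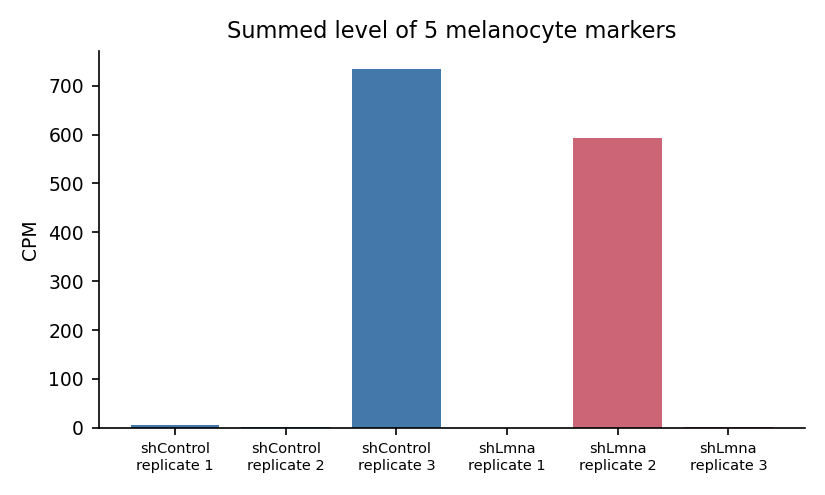
Bars give the summed level of 5 melanocyte markers in each of the 6 libraries, in CPM (UMIs scaled to 1000000 UMIs of the library). shControl replicate 3 (735) and shLmna replicate 2 (593) stood far above the other 4 libraries, which lay between 0.37 and 4.69.

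Mitochondrial DNA is transcribed from both strands as long precursors by a single-subunit RNA polymerase, POLRMT. The factor TFAM bends the promoter DNA and recruits the polymerase, and TFB2M melts the promoter. TFB1M, a relative of TFB2M, methylates the small ribosomal RNA. The precursors are cut into messenger, transfer and ribosomal RNAs. LRPPRC and its partner SLIRP then bind the messenger RNAs, keep them from decay and help the poly(A) polymerase MTPAP extend them. FASTKD2 is needed for the large ribosomal RNA and ribosome assembly. Decay is carried out by the exoribonuclease PNPase, the product of Pnpt1, together with the helicase SUV3, the product of Supv3l1. This pair is known for clearing non-coding antisense RNA of the organelle, and PNPase for keeping mitochondrial double-stranded RNA from reaching the cytosolic sensor MDA5.

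Pnpt1, the exoribonuclease of the decay pair, was read at 21, 20 and 9 UMIs in shControl replicates 1, 2 and 3 and at 284, 280 and 236 UMIs in the shLmna replicates. Scaled to 1000000 UMIs of a library (counts per 1000000, CPM), these were 8.21, 6.23 and 4.76 CPM in shControl and 106, 102 and 125 CPM in shLmna. The groups lay far apart, with no library between 8.21 and 102 CPM. The means were 6.40 ± 1.73 (SD, n = 3) and 111 ± 12.1 (SD, n = 3) CPM. The fitted log2 fold change, shLmna over shControl, was 4.08 (SE 0.22), or 16.9-fold, with a 95% interval of 3.48 to 4.68. Intervals of log2 fold changes here and below use 4 degrees of freedom. The test of the same fit used more, so these intervals are wider than its own. The coefficient of variation was 27.1% in shControl, where counting error alone gives 24.5%. In shLmna it was 10.9%, against 6.12% from counting. Only 50 UMIs in all stand behind the shControl mean, against 800 in shLmna. Without the 2 libraries with melanocyte transcripts the log2 fold change was 4.01, and it stayed between 3.94 and 4.28 when each library was left out in turn.

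By level in the counted 3′ window, Pnpt1 stood above 11.1% of the tested genes in shControl and above 78.4% in shLmna. By fold change it was number 33 from the top of the 8969 tested genes. Across the table, 13.7% of genes passed an adjusted p of 0.05 in edgeR's quasi-likelihood test. In shLmna, 7.96% were higher and 5.78% were lower. Of the 9 genes described here 1, Pnpt1, was past that threshold, and the remaining 8 were not. By the criteria of the study (mean normalized count over 5, an absolute log2 fold change over 1 and an adjusted p under 0.05) 5.71% of genes were called, and again 1 of the 9. The groups did not overlap in 32.5% of all tested genes. Among the 9 they did not overlap in Pnpt1 alone. These counts carry no weight of their own, since the choice of genes used this contrast.

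**Figure D2:**
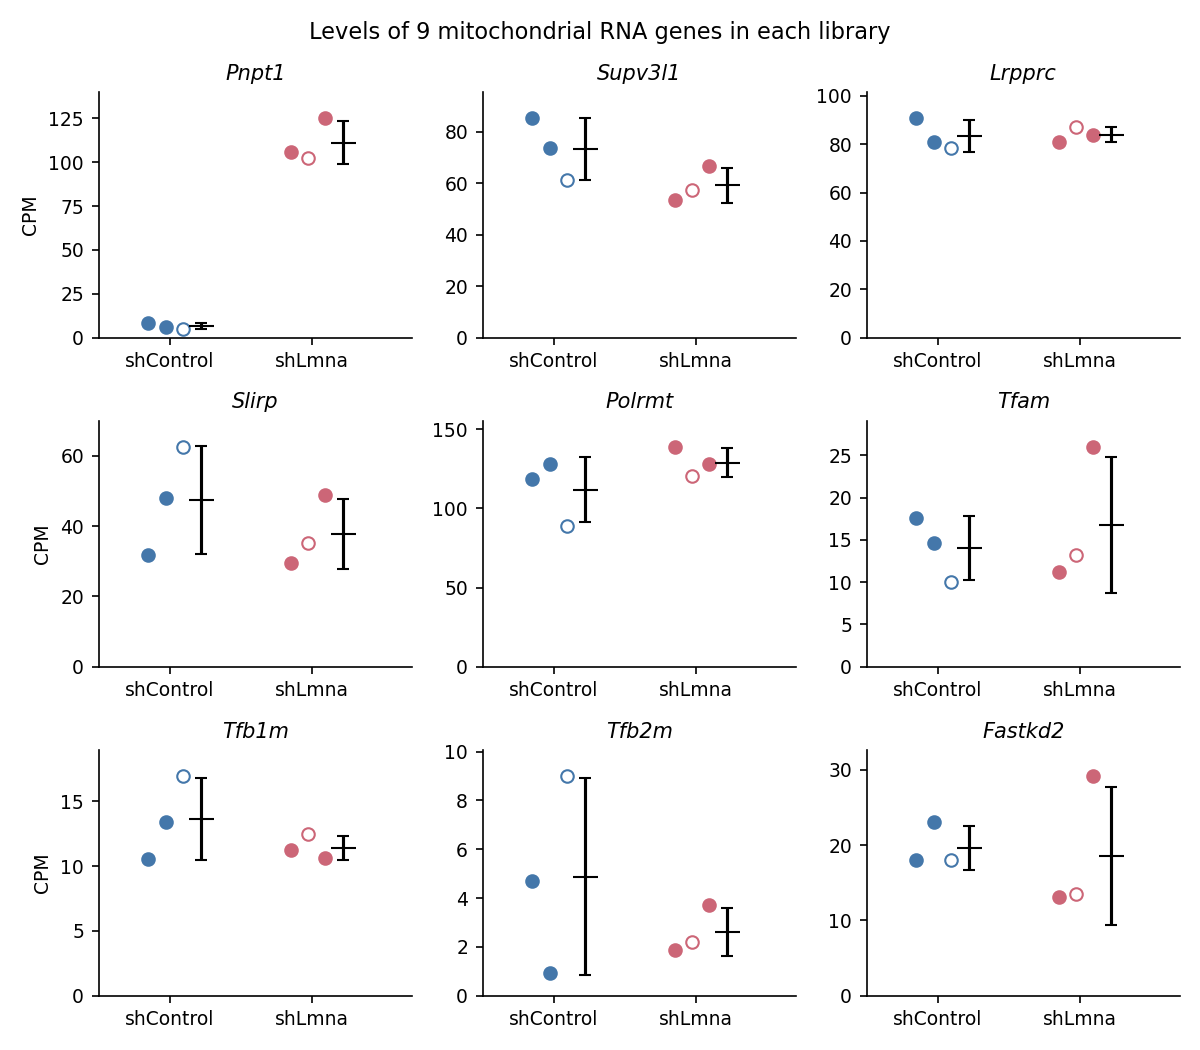
Each panel shows 1 gene, with its level in CPM on an axis from 0. Circles are single libraries, open circles are shControl replicate 3 and shLmna replicate 2 (the libraries with melanocyte transcripts), and bars are the mean ± SD of 3 libraries. The groups lie apart for Pnpt1 (6.40 against 111) and overlap in the other 8 panels.

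Supv3l1, the helicase that works with PNPase, had 218, 236 and 116 UMIs in shControl and 143, 157 and 126 in shLmna. Its means were 73.4 ± 11.9 (SD, n = 3) and 59.2 ± 6.85 (SD, n = 3) CPM. The lowest control library lay below the highest shLmna library. The log2 fold change was -0.32 (SE 0.17), with a 95% interval of -0.80 to 0.15, and -0.41 without the 2 libraries with melanocyte transcripts. The ratio of Pnpt1 to Supv3l1 UMIs within a library was 0.0963, 0.0847 and 0.0776 in shControl, and 1.99, 1.78 and 1.87 in shLmna. Both were counted over transcript ends of equal length. Supv3l1 UMIs outnumbered those of Pnpt1 in every control library, and the reverse held in every shLmna library.

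Lrpprc, which codes for the messenger RNA chaperone, was the steadiest of the 9. It was read at 232, 259 and 148 UMIs in shControl and 217, 238 and 158 in shLmna. The means were 83.2 ± 6.58 (SD, n = 3) and 83.9 ± 3.02 (SD, n = 3) CPM, a log2 fold change of 0.01 (SE 0.15). The 95% interval was -0.40 to 0.42, and the value was -0.05 without the libraries with melanocyte transcripts. Slirp, its partner, had 81, 154 and 118 UMIs in shControl and 79, 96 and 92 in shLmna, or 47.3 ± 15.4 and 37.8 ± 9.90 (SD, n = 3) CPM. Its log2 fold change was -0.33 (SE 0.25), with an interval of -1.01 to 0.35. Without the libraries with melanocyte transcripts it was -0.06. Slirp UMIs per Lrpprc UMI ran from 0.35 to 0.80 over the control libraries and from 0.36 to 0.58 over the shLmna libraries, so this ratio overlapped between the groups. The RefSeq transcript of Slirp is only 419 bases long. Its exons overlap those of Snw1 (longest stretch 121 bases) and Alkbh1 (longest stretch 122 bases) on the opposite strand. Whether the counting used strand is not given in the sources used here, and without strand reads of these genes cannot be told apart.

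The transcription genes showed no separation of the groups. Polrmt, the polymerase, had 304, 411 and 168 UMIs in shControl and 371, 329 and 241 in shLmna. Its level was 112 ± 20.5 in shControl and 129 ± 9.15 (SD, n = 3) CPM in shLmna, with a log2 fold change of 0.20 (SE 0.16, 95% interval -0.25 to 0.64). The counted window of Polrmt runs past the transcript end. The longest stretch it shares with an exon of Hcn2, on the opposite strand, is 79 bases. Whether this stretch lies in the last exons of Polrmt or beyond them is not given here. Tfam, the DNA-bending factor, was read less deeply, at 45, 47 and 19 UMIs in shControl and 30, 36 and 49 in shLmna. The shLmna replicate 3 library was the highest of the 6 for Tfam, and leaving out libraries in turn moved the log2 fold change of 0.18 (SE 0.32) between -0.23 and 0.40.

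Tfb2m, the initiation factor, was close to the detection limit, with 12, 3 and 17 UMIs in shControl and 5, 6 and 7 in shLmna. Its log2 fold change was -0.80 (SE 0.63), with an interval from -2.55 to 0.94. Single libraries moved this value widely. It was -0.10 without shControl replicate 3, one of the libraries with melanocyte transcripts, -1.40 without shControl replicate 2 and -1.12 without shLmna replicate 3. Without both libraries with melanocyte transcripts it was 0.01, and in limma-voom it was -0.30. A change in Tfb2m could therefore not be detected in these libraries. Its coefficient of variation was 82.7% in shControl, against 30.6% from counting, and 37.9% in shLmna, against 40.8%. Tfb1m, the ribosomal RNA methyltransferase, had 27, 43 and 32 UMIs in shControl and 30, 34 and 20 in shLmna. Its log2 fold change was -0.23 (SE 0.26, 95% interval -0.95 to 0.50). The longest stretch that its counted window shares with an exon of Tiam2, on the opposite strand, is 142 bases. Fastkd2, the ribosomal RNA factor, was read at 46, 74 and 34 UMIs in shControl and 35, 37 and 55 in shLmna. It had a log2 fold change of -0.14 (SE 0.29, interval -0.95 to 0.67), and leaving out a library moved it between -0.57 and 0.05. Without both libraries with melanocyte transcripts Polrmt was at 0.11, Tfam at 0.16, Tfb1m at -0.14 and Fastkd2 at -0.02.

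Together, the 8 genes other than Pnpt1 summed to 368 ± 20.4 CPM in shControl and 359 ± 32.2 (SD, n = 3) in shLmna. Pnpt1 made up 2.13%, 1.60% and 1.36% of the UMIs of all 9 genes in the control libraries. The exact 95% binomial intervals of these shares, which cover counting error only, ran from 0.62% to 3.24%. In the shLmna libraries Pnpt1 made up 23.8%, 23.1% and 24.0%, with intervals from 20.7% to 26.8%. Lrpprc, Polrmt and Supv3l1 had the narrowest intervals of the 8. The intervals of 5 of the 8 lay within 1 on the log2 scale in either direction, and those of Slirp, Tfam and Tfb2m did not.

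**Figure D3:**
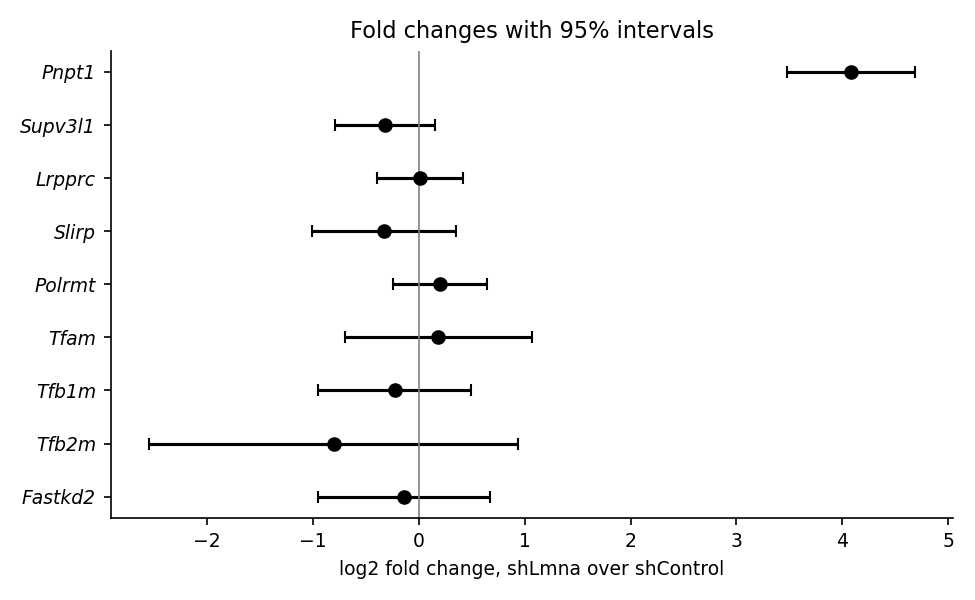
Points are log2 fold changes (shLmna over shControl) of the 9 genes, and bars are 95% intervals from the fit's standard error with 4 degrees of freedom. Pnpt1 is at 4.08, and the intervals of the other 8 genes include 0, with Tfb2m the widest.

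Pnpt1 lies on chromosome 11 of GRCm38 (mm10), forward strand, chr11:29130744-29161828, and has 28 exons in the transcript used. Its counted window reaches over the last 8 exons, and 653 of the last 1000 transcript bases are coding. No annotated exon of another gene was found to overlap this window. The 5 tested genes within 1 Mb, a set looked up after its values were seen, were Smek2 (log2 fold change 0.54), Cfap36 (-0.38), Mtif2 (-0.35), Rps27a (-0.28) and Sptbn1 (0.49). None had an adjusted p under 0.05, and the lowest of the 5 was 0.0675, for Sptbn1.

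The 3′ end of Pnpt1 is poor in G and C, at 35.4% of its last 1000 bases, and only 5.79% of tested genes lay lower. The other 8 genes ranged from 37.8% (Tfb2m) to 57.5% (Polrmt). Across the table, fold change moved with GC content at the low end. Of 639 tested genes with a GC content of at most 36%, 23.0% passed the test higher in shLmna, with a median log2 fold change of 0.38. From 36% to 40%, 11.7% of 1029 genes did, with a median of 0.12. In the 4 classes above 40% the medians lay between -0.07 and 0.00. The share that passed higher was 5.47% from 40% to 44%, 4.30% from 44% to 48%, 6.15% from 48% to 52% and 7.49% above 52%. Of the 85 tested genes with a log2 fold change over 3, 79 (92.9%) had a GC content of at most 40%, against 18.7% of the 8924 tested genes with a GC value. With a correction of each library for GC content, the log2 fold change of Pnpt1 was 3.61. What lies behind the relation to GC content was not tested. Within the group of at most 36% GC, 22 genes had a larger log2 fold change than Pnpt1 and the rest had a smaller one.

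**Figure D4:**
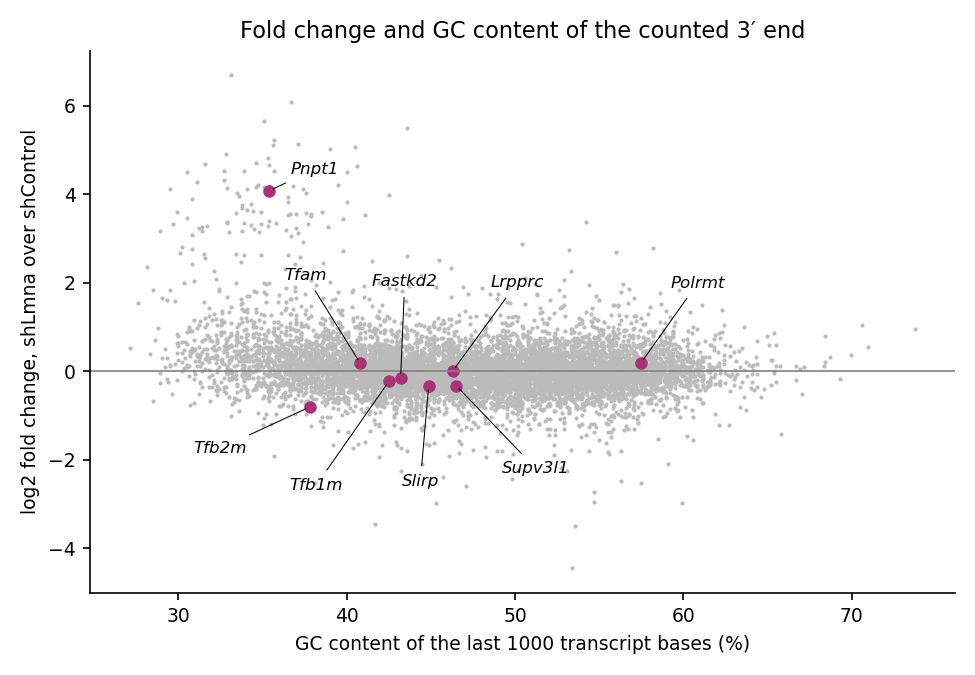
Each grey point is a tested gene, with the GC content of its last 1000 transcript bases on the horizontal axis and its log2 fold change (shLmna over shControl) on the vertical axis. Purple points are the 9 genes. Pnpt1 (35.4%, 4.08) sits in a cloud of genes of low GC content and high fold change, and the other 8 lie in the main band.

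The 4 tested genes whose pattern over the 6 libraries was nearest to that of Pnpt1 were Rab10, Ranbp2, Casp2 and Bclaf1. Likeness was measured as the Euclidean distance of centred log2 CPM, which was 0.52, 0.75, 0.85 and 0.99. Their log2 fold changes were 4.11, 4.66, 4.63 and 4.81. Rab10 codes for a small GTPase of vesicle transport, Ranbp2 for a nuclear pore protein, Casp2 for a caspase and Bclaf1 for an RNA-binding regulator of transcription and splicing. The GC content of their counted ends was 37.4%, 35.4%, 40.6% and 35.3%. Such a match over 2 groups rests mainly on the step between them.

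The deposited log2 values, which the authors had normalized and corrected with ComBat, hold the same 9 genes. On that log2 scale Pnpt1 went from a mean of 6.35 in shControl (6.30 to 6.38) to 8.12 in shLmna (8.05 to 8.19), a difference of 1.77. The other 8 genes differed by -0.16 (Supv3l1) to 0.13 (Polrmt). Differences on this scale are not fold changes of the counts.

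The start sites were compared next, because the known regulators of this gene group, NRF1, GABP (GABPA with GABPB1) and YY1, bind near promoters and their own transcripts were measured. RefSeq windows from 250 bases before to 50 bases after the annotated start were found for all 9 genes. NRF1 was searched as GCGCNTGCG, GABP as CCGGAAG, YY1 as AAGATGG and the interferon response element as GAAANNGAA, each on both strands. Over all 32851 windows of the same length, these letters were found in 6.31%, 8.86%, 6.34% and 8.56%. Polrmt held 2 overlapping NRF1 matches and 1 GABP match, Tfam 1 GABP match, and Tfb2m 1 NRF1 match. Slirp held 3 GABP matches and 1 YY1 match. The windows of Pnpt1, Supv3l1, Lrpprc, Tfb1m and Fastkd2 held none of the 4 letter strings. A match is a string of letters and not a shown binding site. Only exact strings were searched, so a window without a match may still hold a site. The window of Pnpt1 is printed beside those of the transcription genes Polrmt, Tfam and Tfb2m, 5′ to 3′ on the strand of the gene, with matches in capitals. The positions in GRCm38.p6 are chr11:29130494-29130793 (forward strand) for Pnpt1, chr10:79746532-79746831 (reverse strand) for Polrmt, chr10:71237995-71238294 (reverse strand) for Tfam and chr1:179546227-179546526 (reverse strand) for Tfb2m.
Pnpt1: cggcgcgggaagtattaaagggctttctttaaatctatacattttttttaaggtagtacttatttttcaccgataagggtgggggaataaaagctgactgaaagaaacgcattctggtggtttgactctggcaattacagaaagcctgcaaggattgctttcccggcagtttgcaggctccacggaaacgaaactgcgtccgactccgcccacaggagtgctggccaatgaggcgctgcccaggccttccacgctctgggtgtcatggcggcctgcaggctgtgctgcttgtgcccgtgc
Polrmt: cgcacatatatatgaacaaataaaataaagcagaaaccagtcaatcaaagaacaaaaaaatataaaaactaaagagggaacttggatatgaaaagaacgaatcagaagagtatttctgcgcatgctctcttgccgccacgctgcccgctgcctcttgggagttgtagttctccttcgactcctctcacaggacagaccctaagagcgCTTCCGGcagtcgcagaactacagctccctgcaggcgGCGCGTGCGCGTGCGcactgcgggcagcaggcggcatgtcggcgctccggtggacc
Tfam: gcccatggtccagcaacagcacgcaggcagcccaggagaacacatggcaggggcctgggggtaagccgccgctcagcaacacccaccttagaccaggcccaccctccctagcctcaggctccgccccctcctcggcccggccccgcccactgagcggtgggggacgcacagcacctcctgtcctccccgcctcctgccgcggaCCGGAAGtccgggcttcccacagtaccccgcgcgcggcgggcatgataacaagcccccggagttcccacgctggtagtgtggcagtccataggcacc
Tfb2m: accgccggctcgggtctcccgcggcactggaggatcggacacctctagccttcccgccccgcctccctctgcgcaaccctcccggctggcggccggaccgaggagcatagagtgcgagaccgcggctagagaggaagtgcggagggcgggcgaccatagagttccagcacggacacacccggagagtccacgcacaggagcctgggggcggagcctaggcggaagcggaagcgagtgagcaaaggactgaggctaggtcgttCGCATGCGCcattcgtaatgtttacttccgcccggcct

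Of the regulators themselves, 7 of 9 listed genes were tested, and Myc, a general activator of growth and mitochondrial genes, passed the test. Myc was read at 1543, 1842 and 1150 UMIs in shControl and 765, 785 and 491 in shLmna. The shLmna libraries all lay below the control libraries, and Myc fell by 1.10 on the log2 scale (SE 0.13, adjusted p = 6.96e-05). Nrf1 was at -0.21 (adjusted p = 0.499), Gabpa at 0.22 (0.595) and Gabpb1 at -0.18 (0.70). Esrra, the estrogen-related receptor, was at 0.10 and the coactivator Pprc1 at -0.29, with adjusted p of 0.742 and 0.395. Yy1 was at 0.59 (adjusted p = 0.10), with 84, 227 and 117 UMIs in shControl and 199, 243 and 162 in shLmna. All 3 shLmna libraries were above the controls for Yy1 in CPM. Without both libraries with melanocyte transcripts Myc was at -1.105 (adjusted p = 7.07e-05), Yy1 at 0.61 (0.115) and Pprc1 at -0.58 (0.0621). The coactivators Ppargc1a and Ppargc1b were not among the genes of the table.

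The genes listed as direct partners of these proteins did not pass edgeR's test with all libraries. Grsf1, an RNA-binding protein of mitochondrial RNA granules that aids decay by PNPase and SUV3, was read at 88, 157 and 136 UMIs in shControl and 201, 250 and 148 in shLmna. Its log2 fold change was 0.68 (SE 0.22, adjusted p = 0.0526). Grsf1 passed in DESeq2 (adjusted p = 0.049), in limma-voom (0.0335) and with the GC correction (0.041). With the other scalings and filters Grsf1 did not pass (0.0528 to 0.081). It was above all controls in each shLmna library in CPM. Without shControl replicate 1 it was 0.44 (adjusted p = 0.222) and without shControl replicate 3 it was 0.95 (0.00188), while leaving out any 1 of the other 4 libraries gave adjusted p from 0.108 to 0.207. Without the 2 libraries with melanocyte transcripts it was 0.87 (adjusted p = 0.00745). Mtpap, the poly(A) polymerase, had 119, 151 and 116 UMIs against 87, 99 and 81, a log2 fold change of -0.47 (SE 0.19, adjusted p = 0.109). With the GC correction it was -0.61 (adjusted p = 0.0177), and without both libraries with melanocyte transcripts -0.32 (adjusted p = 0.365). Rexo2, which removes the short oligonucleotides left by PNPase, was at 0.33 (SE 0.19, adjusted p = 0.273) and at 0.58 (adjusted p = 0.0312) without both libraries with melanocyte transcripts. With each library left out in turn it lay between 0.20 and 0.54, with adjusted p from 0.0553 to 0.601. Twnk, the replicative helicase, is named Peo1 in the count table. It was at -0.65 (SE 0.21, adjusted p = 0.0511), with 172, 304 and 102 UMIs in shControl and 136, 107 and 94 in shLmna, and at -0.69 (adjusted p = 0.0294) without those libraries. Twnk passed with RLE scaling of the libraries (adjusted p = 0.0492) and with the GC correction alone (0.0403). It did not pass in DESeq2 (adjusted p = 0.0551) or limma-voom (0.0601). Without shControl replicate 2, the library with 304 UMIs, Twnk was at -0.39 (adjusted p = 0.318), and without shControl replicate 3 it was at -0.82 (0.00584). Leaving out any 1 of the other 4 libraries gave adjusted p from 0.0721 to 0.176. Polg, the replicative polymerase, was at -0.08 (adjusted p = 0.805).

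Beyond the 9 genes, 4 lists of nuclear genes for mitochondrial RNA and mitochondrial DNA were read in the same fit. They hold 63 genes, of which 59 were in the table and 53 were tested. None passed higher and 2 passed lower, against 7.96% and 5.78% of all tested genes. The median log2 fold change over the 53 was -0.10, beside 0.00 over all tested genes. Of the 53, 34 had a negative value, beside 4448 of all 8969 tested genes. Both genes that passed belong to the 17 tested RNA modification genes, whose median was -0.32. Trit1, which isopentenylates adenosine in transfer RNA, had 75, 133 and 57 UMIs in shControl and 53, 53 and 45 in shLmna. It fell by 0.70 on the log2 scale (SE 0.21, adjusted p = 0.0409). Alkbh1, a demethylase that acts on transfer RNA, fell by 0.53 (SE 0.17, adjusted p = 0.0495), with 145, 203 and 139 UMIs against 129, 109 and 85. In DESeq2 neither passed (adjusted p = 0.0715 for Trit1 and 0.0769 for Alkbh1), and the 1 gene of this list that did was Rpusd4, a pseudouridine synthase (-0.53, adjusted p = 0.0466). In limma-voom Trit1 passed (adjusted p = 0.041) and Alkbh1 did not (0.0525). Neither passed without both libraries with melanocyte transcripts (adjusted p = 0.0642 and 0.257). Trit1 also missed the threshold without shControl replicate 2 or any 1 of the shLmna libraries (adjusted p up to 0.22), and Alkbh1 without any 1 of the 6 libraries (up to 0.172). The exons of Alkbh1 are among those that overlap Slirp.

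The list of RNA processing, polyadenylation and turnover had 22 tested genes and a median of -0.03. None of the 22 passed in edgeR, 7 had an unadjusted p under 0.05, and DESeq2 and limma-voom passed 1 each (Grsf1). The 3 tested genes of transcription elongation and termination, Tefm, Mterf2 and Mterf3, had values from 0.07 to 0.43. None had an unadjusted p under 0.05 in edgeR, and none passed in DESeq2 or limma-voom. The 11 tested genes of mitochondrial DNA replication and nucleotide supply had a median of -0.12. None of the 11 passed with any of the 3 tools, and 2 had an unadjusted p under 0.05 in edgeR. The share of all tested genes with an unadjusted p under 0.05 is not given here. Nothing is therefore read from the counts at that level in these lists. The transcripts of mitochondrial DNA itself, which are the substrates of these enzymes, could not be followed. None of 15 listed mitochondrial genes was in the table.

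The RNA exosome, the complex that degrades RNA from the same end in the nucleus and cytosol, and which contains relatives of PNPase, had 13 tested genes with a median of -0.17. Dis3, its catalytic nuclease, rose by 1.46 on the log2 scale (SE 0.42, adjusted p = 0.0313), with 7, 43 and 43 UMIs in shControl and 64, 117 and 69 in shLmna. The shControl replicate 1 library, at 7 UMIs, was low for Dis3. Without it the log2 fold change was 0.96 (adjusted p = 0.0532), and in DESeq2 the adjusted p was 0.261. Exosc10, the nuclear exoribonuclease subunit, fell by 0.66 (SE 0.17, adjusted p = 0.0166), and Exosc2, a cap subunit, fell by 0.59 (SE 0.17, adjusted p = 0.0313). All 3 missed the threshold when shControl replicate 1 or 2 or shLmna replicate 2 or 3 was left out, with adjusted p up to 0.134 for Dis3, 0.0879 for Exosc10 and 0.139 for Exosc2. Without both libraries with melanocyte transcripts, Dis3 (1.81) and Exosc10 (-0.66) passed, and Exosc2 was at -0.48 (adjusted p = 0.0622).

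Among 8 sensors and effectors of double-stranded RNA, 6 were in the table and 5 were tested. None of the 5 passed with edgeR, DESeq2 or limma-voom, and none had an unadjusted p under 0.05 in edgeR. The values ran from -0.29 (Adar) to 0.48 (Ddx58, which codes for RIG-I), with Mavs, the adaptor of RIG-I on mitochondria, at 0.00. Ifih1, which codes for MDA5, was not in the table. Of 4 leukocyte markers 2 were tested, and they went opposite ways. Lyz2 rose by 1.28 on the log2 scale (SE 0.30, adjusted p = 0.011), with 10, 23 and 13 UMIs in shControl and 42, 35 and 29 in shLmna. Cd68 was at -0.62 (adjusted p = 0.234), with 34, 26 and 17 UMIs in shControl and 23, 15 and 10 in shLmna. Ptprc and Cd3e were not in the table. The summed UMIs of that list were 30 to 49 in shControl and 39 to 65 in shLmna.

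**Figure D5:**
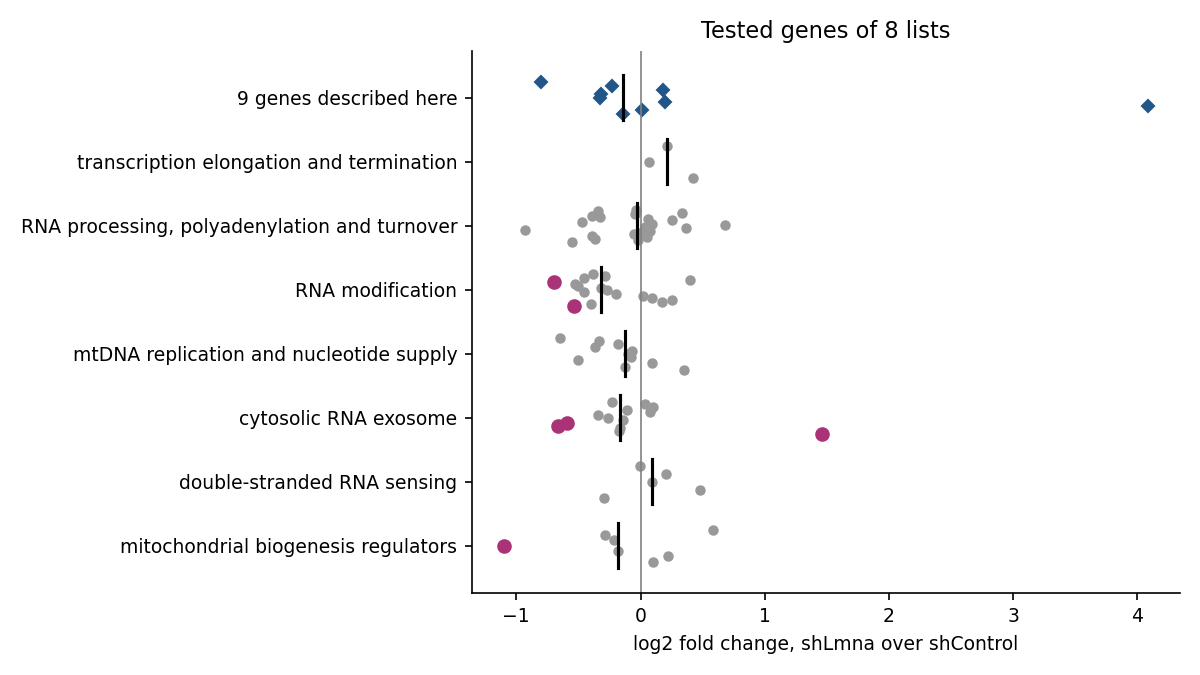
Each point is a tested gene, placed by its log2 fold change (shLmna over shControl) in the row of its list, and the black bar is the median of the list. Blue diamonds are the 9 genes described here, for which no test is given. Large purple points are genes of the other lists with an adjusted p under 0.05 in edgeR's test (Trit1, Alkbh1, Dis3, Exosc10, Exosc2 and Myc), and grey points did not pass.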

How the data were processed

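The authors trimmed reads with Cutadapt, mapped them to mm10 using STAR 2.4.2a and counted UMIs over RefSeq 3′ ends. The deposited counts, which are not normalized, cover 10520 genes, and no gene peaks below 6 UMIs. The deposited log2 values were normalized and corrected with ComBat by the authors, and which batch entered is not given in the sources used here. They served only for 1 description. The authors' table of their own comparison (DESeq2 fold changes, p-values and adjusted p-values) was not used. The number of per-library columns left out was 0.

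The counts were fitted with edgeR 4.0.16 in R 4.3.3 (filterByExpr with a minimum count of 10, TMM scaling, quasi-likelihood test, Benjamini-Hochberg adjustment over 8969 genes). CPM use TMM-scaled totals. With 3 libraries against 3, an exact permutation test of single values cannot go below p = 0.1, so none was run. Alternatives were DESeq2 1.42.0, limma-voom (limma 3.58.1), other scalings and filters, thinned counts, a replicate block, a GC offset (loess, span 0.3) and leaving out libraries. Transcripts came from GENCODE M21 (GRCm38), anchored to RefSeq ends, and 10392 of the 10520 genes had one. Figures used Python 3.11.15 with matplotlib 3.10.9. The scripts were tested on simulated data.

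The genes described and the lists were chosen with earlier results of these data known. Named are all 9 genes, 5 genes listed as partners, the tested regulators, up to 3 genes per direction with adjusted p under 0.05 in each list, the 4 genes nearest to Pnpt1, and Lmna.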

Additional observations from a re-analysis of the deposited data

How the results depend on the processing

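Pnpt1 was the only 1 of the 9 genes (5 to 9 of them tested) past the threshold under each of the 17 alternatives run, with a log2 fold change between 3.60 (GC offset with replicate block) and 4.28. That count carries no weight of its own, since the choice of genes used this contrast and the alternatives refit the same libraries. The number of genes passing across the table was 1232, and 779 with a mean count of at least 50 and 540 to 1579 with each library left out. The criteria of the study called 512 genes, and 158 with a mean count of at least 50. The GC offset moved the share of higher genes among those passing from 57.95% to 48.34%. Of the 53 genes of the mitochondrial lists, 2 passed, beside 13.7% of all tested genes. With upper-quartile scaling, with no filter on low counts, with a mean count of at least 50 and with thinned counts 1 passed. Across the table these settings passed 11.5% to 13.6%. With the GC offset 6 passed, and 4 with the GC offset and replicate block, beside 16.8% and 15.7% of all tested genes. Without both libraries with melanocyte transcripts 4 passed (Grsf1, Peo1, Ptcd2 and Rexo2), beside 13.2%. With each library left out 0 to 5 passed, beside 5.89% to 17.2%. The replicate block gave 3 of the 53 and 1350 genes across the table. Correlations of deviations between control and shLmna libraries of the same replicate number were 0.35, -0.11 and 0.01. Pairs of unlike number were not compared, so these values cannot decide whether the numbers pair the libraries. With the replicate block Yy1 (0.64, adjusted p = 0.0321) and Grsf1 (0.72, adjusted p = 0.0247) passed. The cause of these shifts was not tested. Tfb2m, the gene of the 9 with the lowest mean count, also had the widest interval.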
